A study of Mus musculus with 19 samples.

Results

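Purkinje cells are the large inhibitory neurons whose axons are the sole output of the cerebellar cortex. They receive glutamate from parallel and climbing fibers, and much of that input is read out through the metabotropic receptor mGluR1, IP3 and the release of calcium from the endoplasmic reticulum. Their identity is commonly followed with a small set of genes for calcium buffers, calcium release, glutamate uptake and transcription factors. The 10 genes described here belong to that set: Calb1, Pcp2, Pvalb, Itpr1, Car8, Rora, Ppp1r17, Slc1a6, Foxp2 and Homer3. They were chosen by name as Purkinje cell markers and matched by symbol to Ensembl identifiers, and all 10 were found among the 41388 genes of the count files.

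Messenger RNA was sequenced from 16 samples of mice that were either Wiz+/+ or WizMommeD30/+. MommeD30 is an ENU-induced allele of Wiz, a zinc finger protein found with the histone methyltransferases EHMT1 and EHMT2. Adult cerebellum came from FVB males at 56 days post partum, with 3 samples of each genotype. E13.5 whole brain came from FVB embryos at 13.5 days post coitum, with 3 males and 2 females of each genotype. Both genotypes came from a line kept on an FVB/NJ background that carries a multicopy GFP transgene driven by a human alpha-globin promoter and enhancer, so the controls share that transgene. The mutation is in every cell of the animal, not only in Purkinje cells. A further 3 ChIP-seq samples were not analysed here.

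Total counts were 28365687 to 30856484 in the cerebellums and 16386029 to 50459755 in the E13.5 brains, with the fewest in male Wiz+/+ replicate 2. Wiz, the mutated gene, was lower in WizMommeD30/+ at both ages: its mean fell from 95.4 ± 0.062 to 67.3 ± 0.613 CPM (counts scaled to the library total; SD, n = 3 each) in cerebellum, and the 5 heterozygous E13.5 brains were all below the 5 Wiz+/+ brains. Counts of cerebellar cell type markers placed the samples where their labels did. The 10 granule neuron markers summed to 7100 to 7200 CPM in the Wiz+/+ cerebellums, and 3 of 5 forebrain markers lay under 0.1 CPM there. WizMommeD30/+ cerebellum replicate 2 stood apart in its other tissue: its 6 choroid plexus markers summed to 954 CPM against 1750 to 2050 CPM in the other cerebellums, and its 5 erythroid markers to 481 CPM against 145 to 280 CPM. Among the E13.5 brains, female Wiz+/+ replicate 2 stood apart in its regional markers: its 5 forebrain markers summed to 258 CPM, against 403 to 469 CPM in the other brains, and its 5 midbrain markers to 196 CPM, against 146 to 164 CPM.

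The first question was where these genes stood in a normal cerebellum. In the Wiz+/+ cerebellums the 10 genes together took 0.741%, 0.785% and 0.75% of all counts, and Itpr1, the IP3 receptor that releases calcium from the endoplasmic reticulum, was the fourth gene of all by CPM. To compare genes with each other, CPM was divided by the exon length of the gene in kb (RPKM). On that scale Pvalb, which encodes the calcium buffer parvalbumin and is also made by molecular layer interneurons, was highest at 535.6 ± 5.2 (SD, n = 3). Car8, a carbonic anhydrase-related protein that binds the IP3 receptor, followed at 254 ± 3.63. Itpr1 came next at 212.9 ± 11.7, and Calb1, which encodes the calcium buffer calbindin, at 181.9 ± 0.964.

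The middle of the order held Ppp1r17, a phosphatase inhibitor that is a substrate of cGMP-dependent protein kinase, at 115.8 ± 0.442 RPKM. Pcp2, a modulator of G protein signalling, stood at 95.1 ± 1.95. Homer3, a scaffold that links mGluR1 to the IP3 receptor, and Slc1a6, the Purkinje cell glutamate transporter EAAT4, had RPKM ranges that overlapped (82.9 to 85.6 and 79.1 to 88.0), so their order was not resolved. Rora, the nuclear receptor mutated in staggerer mice, was 31.6 ± 1.48. Foxp2, a transcription factor, was last at 0.677 ± 0.017 and 46.7-fold below Rora. In every other neighbouring pair the ranges of the 3 cerebellums did not overlap. These ranges hold only the spread between libraries, and the order also rests on the exon length, merged over transcripts, of each gene. For Pcp2 that length was 1828 bases in a genomic span of 2.17 kb. The order under other lengths was not tested.

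**Figure D1:**
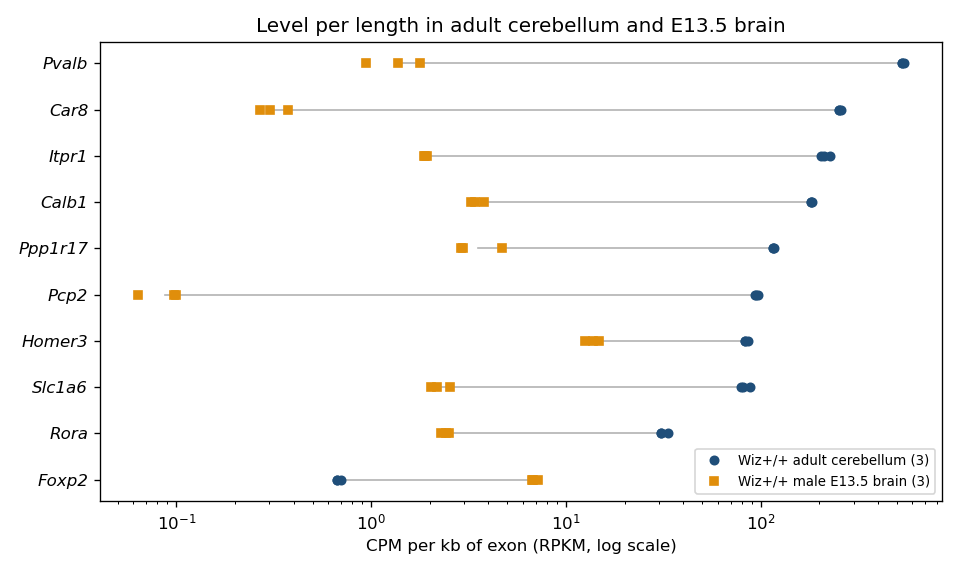
CPM per kb of exon (RPKM, log scale, x axis) of the 10 genes (y axis, in order of their level in cerebellum) in 3 Wiz+/+ adult cerebellums (circles) and 3 Wiz+/+ male E13.5 brains (squares), with a line joining the means. The points of 9 genes lie further right in cerebellum, and Foxp2 lies further right in the E13.5 brain.

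The second question was how these levels compared with the E13.5 brain. In Wiz+/+ males, 9 of the 10 genes were higher in adult cerebellum than in E13.5 whole brain and Foxp2 was lower, and all 10 passed the study's threshold (adjusted p of at most 0.05 with a fold under 0.7 or over 1.3; edgeR quasi-likelihood test, 3 against 3). That threshold was passed by 69.3% of the 16840 genes tested in this comparison, so passing it said little by itself, while the sizes were large. The median log2 fold of the 10 genes was 5.65, and that of all tested genes was -0.015. A log2 fold of at least 5 was reached by 7 of the 10 genes and by 1.73% of all tested genes. The comparison joins tissue, age and dissection, and in whole tissue a difference in the number of Purkinje cells and in RNA per cell cannot be told apart.

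Pcp2 showed the widest gap. It had 9, 3 and 4 counts in the Wiz+/+ male brains (0.178, 0.183 and 0.116 CPM) and 177.9, 171.1 and 172.8 CPM in the cerebellums, a log2 fold of 10.28 (SE 0.0885, adjusted p = 2.36e-19). Car8 rose from 1.22 ± 0.21 to 978.5 ± 14.0 CPM (SD, n = 3 each; log2 fold 9.78). Pvalb rose from 1.42 ± 0.433 to 557.6 ± 5.41 CPM (log2 fold 8.69). These 3 genes had the lowest CPM of the 10 in the E13.5 brain. The 10 brains gave at most 14 counts of Pcp2, 73 of Car8 and 93 of Pvalb per library. Per length, over the 5 Wiz+/+ brains, the range of Pvalb (1.44 ± 0.32 RPKM) overlapped that of Itpr1 (1.84 ± 0.109 RPKM).

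The other genes stood higher in CPM in the E13.5 brain. Itpr1 stood at 34.7 ± 0.591 CPM there and 3899 ± 214 CPM in cerebellum (log2 fold 7.02), and Calb1 at 16.9 ± 1.33 and 881.6 ± 4.67 CPM (log2 fold 5.92). Slc1a6 and Ppp1r17 had log2 folds of 5.38 (SE 0.0726) and 5.23 (SE 0.101). Rora (log2 fold 3.93) and Homer3 (log2 fold 2.84) had the smallest rises, from 31.4 ± 1.56 and 47.1 ± 3.93 CPM. Foxp2 went the other way, from 112.8 ± 4.51 CPM in the E13.5 brain to 11.1 ± 0.278 CPM in cerebellum, a log2 fold of -3.13 (SE 0.0493, adjusted p = 4.83e-17). In the embryo Foxp2 is also known from neurons of the forebrain and midbrain, which the whole brain samples contain. Per length, the order at E13.5 was accordingly different: over the 5 Wiz+/+ brains Homer3 (13.8 ± 0.827 RPKM) and Foxp2 (7.19 ± 0.463 RPKM) led, and Pcp2 was last at 0.112 ± 0.038 RPKM.

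**Figure D2:**
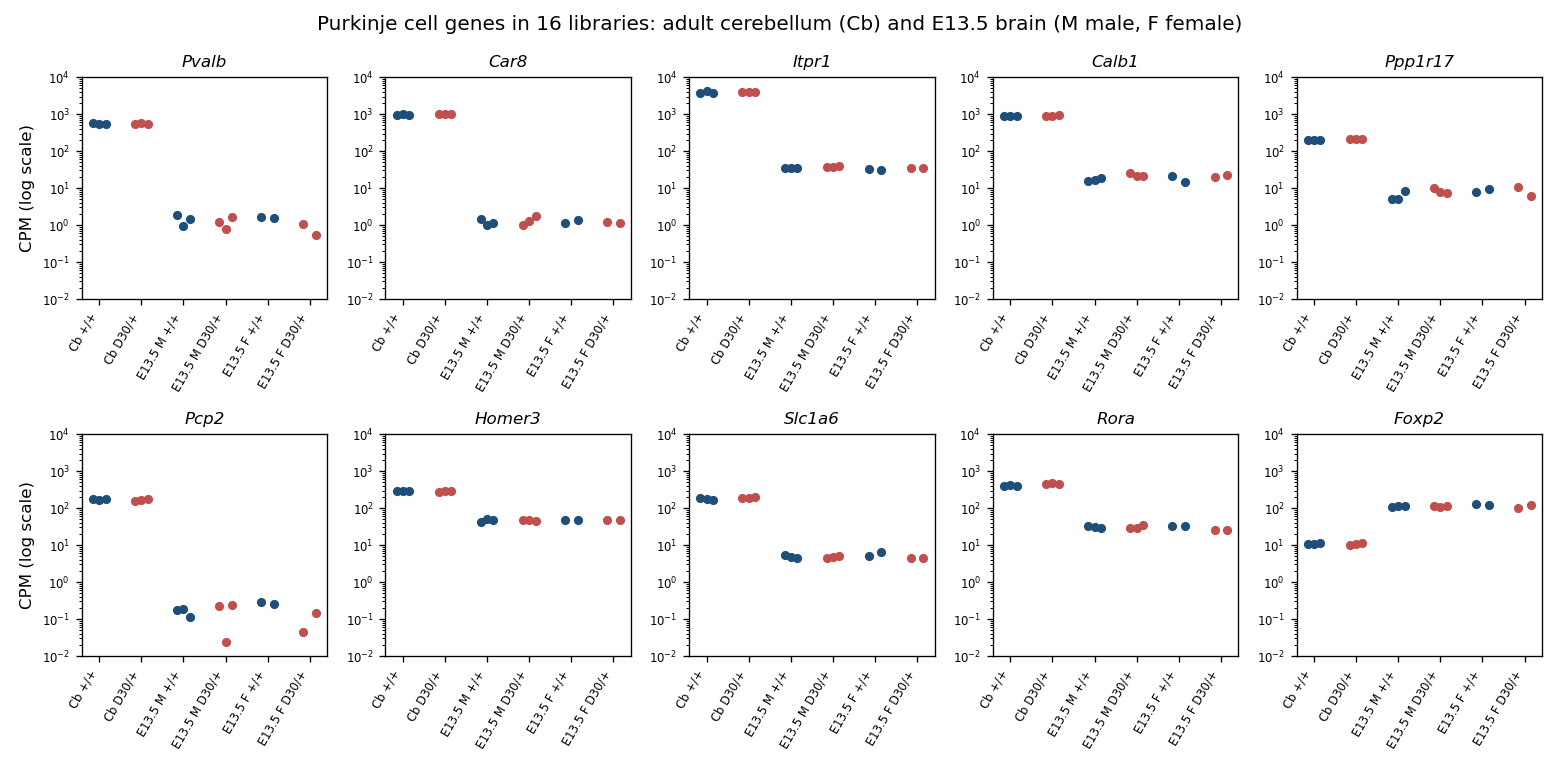
CPM on a log scale (y axis) of the 10 genes, 1 panel each, in the 16 libraries grouped on the x axis by tissue (Cb, adult cerebellum; E13.5, whole brain), sex (M, F) and genotype (+/+ in blue; D30/+, WizMommeD30/+, in red); each point is 1 library. The step between cerebellum and E13.5 brain is much wider than the spread between libraries in every panel, and Foxp2 is the gene that is higher at E13.5.

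Other genes used by Purkinje cells moved the same way. Of 20 further Purkinje genes, 17 passed the threshold as higher in cerebellum and 2 as lower, with a median log2 fold of 3.79. The 2 lower genes were Ebf2 (log2 fold -2.33) and Lhx5 (log2 fold -1.03), which encode transcription factors. The mGluR1, IP3 and calcium pathway had 25 genes, 4 of which are among the 10 genes. Of these 25, 21 passed the threshold as higher and 1 as lower. That gene was Homer2, a relative of Homer3, with a log2 fold of -1.40. Marker lists of other adult cells also passed upwards, with 10 of 10 granule neuron markers and 6 of 6 oligodendrocyte markers, so a rise was not particular to Purkinje genes. Scaling by total counts alone lowered the median of all genes by 0.21 to -0.226 and left the 10 calls and their directions in place.

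The main question was whether the genes differed between genotypes in adult cerebellum. They differed little. None of the 10 passed the study's threshold, which 0.832% of the 15979 tested genes passed. The 95% confidence intervals of all 10 lay inside 0.7- to 1.3-fold, and the log2 folds of WizMommeD30/+ over Wiz+/+ ran from -0.061 for Pcp2 to 0.16 for Rora. With the adjusted p alone and no limit on the fold, Rora was the 1 gene of 10 that passed, against 5.25% of all tested genes. At an unadjusted p under 0.05, 4 of the 10 genes were higher and 0 lower, where 9.59% of all tested genes were higher, and DESeq2 called 0 of 10 at the study's threshold. The median log2 fold of the 10 genes was 0.041 and that of all tested genes was -0.003.

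Rora rose by 1.12-fold in WizMommeD30/+ cerebellum. Its level was 400.4, 435.1 and 403 CPM in the Wiz+/+ cerebellums and 456.5, 477 and 451.9 CPM in the WizMommeD30/+ cerebellums. The 3 heterozygous samples all lay above the 3 Wiz+/+ samples, which was so, in either direction, for 24.3% of all tested genes. The log2 fold was 0.16 (SE 0.034, 95% CI 0.092 to 0.235, adjusted p = 0.0102 in the edgeR quasi-likelihood test). The adjusted p was 0.0894 without Wiz+/+ replicate 3 and 0.14 when all 16 samples shared 1 fit; without WizMommeD30/+ replicate 2, which stood apart in choroid plexus and erythroid markers, it was 0.0388.

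Rora is a long gene, at chr9:68653786-69388246 (mm10) on the plus strand, and fold changes in this comparison moved with the genomic span of the gene. In the eighth of tested genes with the shortest span (up to 4.54 kb) the median log2 fold was -0.044, and in the longest eighth (from 111 kb, where Rora, Itpr1 and Foxp2 lie) it was 0.017. Among genes that passed the adjusted p, 23.5% of the shortest and 67.4% of the longest were higher in WizMommeD30/+. Within the longest eighth, 10.7% of genes had a log2 fold at or above that of Rora. The part of gene span in the Rora result was not tested.

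**Figure D3:**
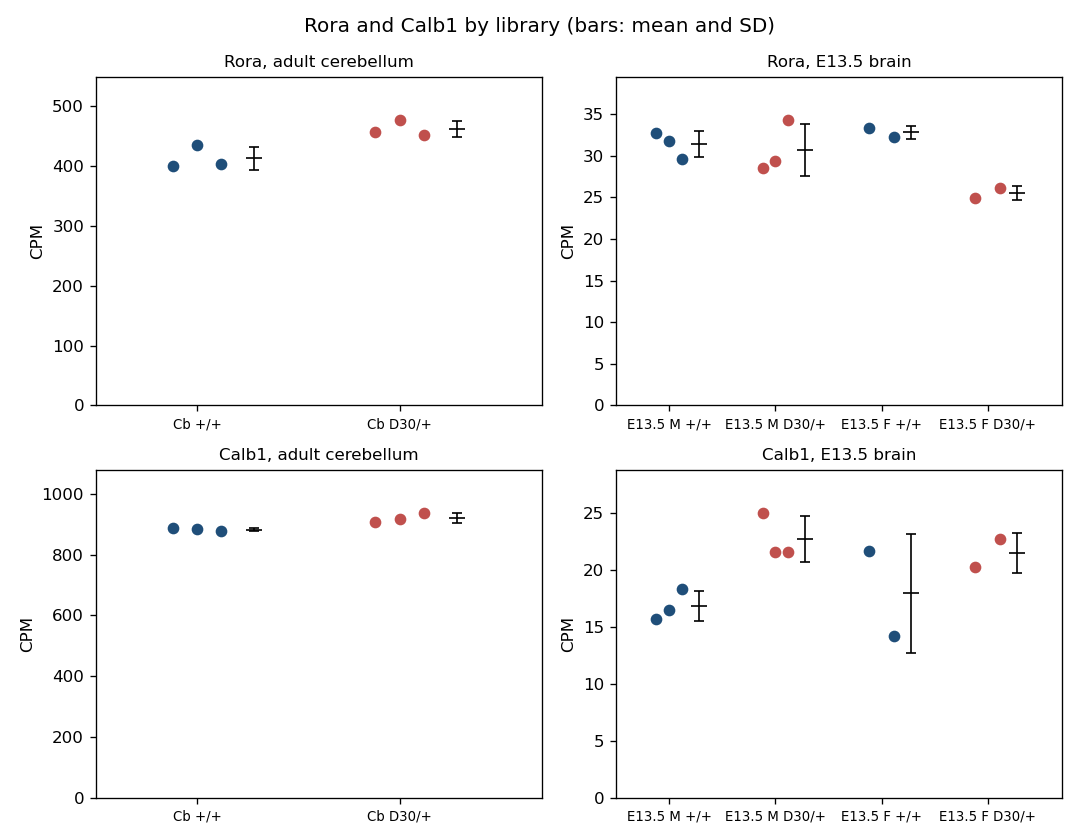
CPM (y axis, from 0) of Rora (top) and Calb1 (bottom) in each library of adult cerebellum (left) and E13.5 brain (right), with Wiz+/+ in blue and WizMommeD30/+ in red; the black bars give mean and SD. Rora is higher in the 3 heterozygous cerebellums and lower in the 2 heterozygous female brains, and Calb1 is higher in the 3 heterozygous male brains.

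Rora binds the site AGGTCA, and Pcp2, Itpr1 and Slc1a6 are known as genes it binds in Purkinje cells. None of the 5 genes in a list of such genes (these 3, Pcp4 and Shh) passed the adjusted p in cerebellum: 3 lay above 0 and 2 below, with a median log2 fold of 0.050. RefSeq promoters (GRCm38.p6, 250 bases before to 50 after the start) were at hand for 5 of the 10 genes, with 9 windows in all: Pcp2, Pvalb, Rora, Slc1a6 and Homer3. The site, searched on both strands as AGGTCA or TGACCT, was in 4 of the 9 windows, 3 of Pcp2 and 1 of Homer3, and in 16.3% of all 32851 promoters. In Pcp2, 2 of the 3 windows overlap and share 1 site, and the third window (chr8:3624987-3625286) holds another. The promoter of Pcp2 is shown because Pcp2 is the textbook Purkinje cell promoter and its window furthest upstream holds the site (capitals) close to the start, at chr8:3625548-3625797 on the minus strand. The promoter of Rora, the gene that moved, is shown beside it (chr9:68653536-68653785, plus strand) and holds none. The stretch around the site of Homer3 (chr8:70282830-70282859, plus strand) has it in the opposite orientation.
Pcp2: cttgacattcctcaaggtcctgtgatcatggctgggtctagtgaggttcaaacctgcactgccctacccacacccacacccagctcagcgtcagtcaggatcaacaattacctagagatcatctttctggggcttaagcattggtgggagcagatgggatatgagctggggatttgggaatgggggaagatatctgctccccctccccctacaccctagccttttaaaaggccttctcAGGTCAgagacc
Rora: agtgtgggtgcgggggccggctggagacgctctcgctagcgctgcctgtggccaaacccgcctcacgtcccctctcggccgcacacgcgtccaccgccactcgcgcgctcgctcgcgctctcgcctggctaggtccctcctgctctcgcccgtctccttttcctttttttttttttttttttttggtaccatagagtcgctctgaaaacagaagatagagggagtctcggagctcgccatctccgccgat
Homer3: agttcctcctctTGACCTcctggtgccctc

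Pcp2 measured 177.9, 171.1 and 172.8 CPM in the Wiz+/+ cerebellums. In the WizMommeD30/+ cerebellums it measured 159.2, 167.8 and 172.4 CPM, and the groups overlapped. Its log2 fold was -0.061 (SE 0.0324, 95% CI -0.13 to 0.0071, adjusted p = 0.309). Pcp2 at chr8:3623371-3625545 overlaps Pet100 on the other strand (98 to 297 counts per library), and the library kit did not mark strand.

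Another 3 genes, Slc1a6, Ppp1r17 and Calb1, had an unadjusted p under 0.05 and did not pass the adjusted p in the edgeR test. Slc1a6, which clears glutamate at parallel and climbing fiber synapses, measured 189.3, 174.7 and 170.3 CPM in Wiz+/+ and 189.1, 189.2 and 200.2 CPM in WizMommeD30/+. The groups overlapped, and the log2 fold was 0.12 (SE 0.0372, adjusted p = 0.0789). It passed the adjusted p without Wiz+/+ replicate 1 (0.0167), the highest of the 3 controls, and in edgeR without a count filter (0.0231).

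Ppp1r17 was tight in the controls, at 204.4, 203.1 and 203 CPM, and measured 213.1, 219.2 and 213.1 CPM in the heterozygotes. The groups did not overlap, and the log2 fold was 0.082 (SE 0.0269, adjusted p = 0.0863). Calb1 measured 885.9, 882.4 and 876.6 CPM in Wiz+/+ and 906, 918 and 936.2 CPM in WizMommeD30/+. These groups did not overlap either, and the log2 fold was 0.063 (SE 0.0268, adjusted p = 0.191). Rora, Ppp1r17 and Calb1 were thus the 3 of 10 genes without overlap, beside the 24.3% of all tested genes.

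The other 5 genes had log2 folds between -0.034 and 0.050 and groups that overlapped. Itpr1 measured 3713, 4133 and 3852 CPM in Wiz+/+ and 4058, 3966 and 4073 CPM in WizMommeD30/+ (log2 fold 0.050, 95% CI -0.026 to 0.126). Car8 measured 967.8, 994.3 and 973.3 CPM against 987.3, 1012 and 1000.3 CPM (log2 fold 0.033). Pvalb had means of 557.6 ± 5.41 and 557.5 ± 14.9 CPM (SD, n = 3 each; log2 fold 0.0015, 95% CI -0.057 to 0.059). As a fold, the interval for Pvalb ran from 0.962 to 1.04.

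Homer3 measured 294.4, 286.1 and 285.2 CPM in Wiz+/+ and 273.7, 286.1 and 295.1 CPM in WizMommeD30/+ (log2 fold -0.016). It overlaps Ddx49 on the other strand, which had 445 to 1288 counts per library. Foxp2, the gene with the fewest counts in cerebellum, measured 10.9, 10.9 and 11.4 CPM against 10, 10.9 and 11.4 CPM (log2 fold -0.034, 95% CI -0.189 to 0.122).

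**Figure D4:**
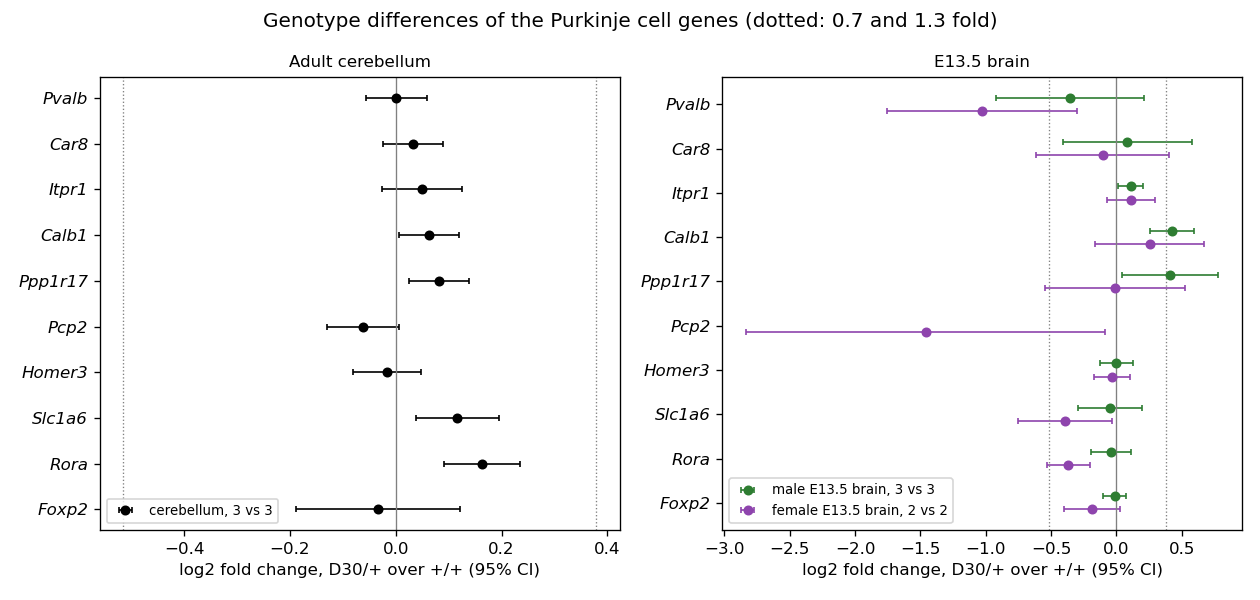
log2 fold change of WizMommeD30/+ over Wiz+/+ (x axis) of the 10 genes (y axis) with 95% confidence intervals, in adult cerebellum (left, 3 against 3) and in male (green, 3 against 3) and female (purple, 2 against 2) E13.5 brain (right, on a wider axis); dotted lines mark 0.7- and 1.3-fold. In cerebellum all intervals lie between the dotted lines and Rora is furthest from 0. Pcp2 had too few counts to be tested in males.

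The genes did not move as 1 block among the 6 cerebellums. Of the 45 pairs of the 10 genes, 30 had a Pearson r above 0 across the 6 samples, with a median r of 0.217 and a range of -0.669 to 0.924. WizMommeD30/+ replicates 2 and 3 held the highest value of 8 of the 10 genes, and WizMommeD30/+ replicate 1 held the lowest value of 4 of them (Pcp2, Pvalb, Foxp2 and Homer3). Across the same 6 samples, the genes whose levels were most like the mean of the 10 (Pearson r of log2 CPM with the mean z-score, among 10110 genes of at least 10 CPM) were Nus1, Chmp2b, Arpc5, Tsga10 and Vim, with r between 0.97 and 0.987. The 6 samples share genotype groups, and these values are a description of the 6 libraries.

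The neighbouring pathways in cerebellum had few calls. None of the 20 further Purkinje genes passed the adjusted p (13 above 0, 7 below, median log2 fold 0.037), and none of the 25 genes of the mGluR1, IP3 and calcium pathway did (median 0.0018). Of 7 tested EF-hand calcium buffers, 0 passed. In the cGMP and phosphatase list, to which Ppp1r17 belongs, 2 of 10 genes passed and both were higher. These were Nos1, which makes the nitric oxide that activates guanylate cyclase and is made mainly by granule neurons and interneurons (311.2 ± 14.7 to 410.6 ± 9.74 CPM, log2 fold 0.40, adjusted p = 3.54e-06), and Gucy1a2, a guanylate cyclase subunit (4.45 ± 0.658 to 6.16 ± 0.673 CPM, log2 fold 0.47, adjusted p = 0.0314). Prkg1, the cGMP-dependent kinase of Purkinje cells, was in that list and among the further Purkinje genes, and did not pass.

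Markers of other cells were measured beside these values, and their part in the Purkinje gene results was not tested. None of 10 molecular layer interneuron markers passed the adjusted p. Of 10 granule neuron markers, Cbln3 was higher (log2 fold 0.12, adjusted p = 0.0313) and Zic1 lower (log2 fold -0.11, adjusted p = 0.0331). Of 6 oligodendrocyte markers, 5 lay below 0 and 3 passed the adjusted p as lower (Mag, Mbp and Cnp, log2 folds -0.19, -0.17 and -0.11). The list summed to 4630 to 4840 CPM in WizMommeD30/+ and 4790 to 5150 CPM in Wiz+/+. In the Bergmann glia and astrocyte list Gdf10 passed as higher (log2 fold 0.12) and Gfap and Fabp7 as lower (log2 folds -0.19 and -0.19). All 5 erythroid markers lay above 0, and 4 passed the adjusted p as higher (Alas2, Hbb-bs, Hba-a1 and Hba-a2, log2 folds 1.08, 0.86, 0.78 and 0.87). Their list summed to 266 to 481 CPM in WizMommeD30/+ against 145 to 228 CPM in Wiz+/+. Single markers passed as lower in the unipolar brush cell (Eomes), endothelial (Cldn5), progenitor (Nes and Sox2) and postmitotic neuron (Tubb3) lists, while 0 of 3 Golgi cell, 0 of 6 microglia and 0 of 6 choroid plexus markers passed.

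In the E13.5 brain, none of the genes passed the study's threshold or the adjusted p between genotypes in males, in females or in both sexes together (edgeR quasi-likelihood test). The threshold was passed by 0.184% of 16848 tested genes in males, 0.111% of 17152 in females and 0.346% of 17620 in both, and the adjusted p alone by 0.196%, 0.111% and 0.477%. At an unadjusted p under 0.05 there were 3 of 9 tested genes in males, 4 of 10 in females and 4 of 10 in both sexes together, where 8.45%, 6.4% and 11.8% of all tested genes lay. At the study's threshold DESeq2 called 1 gene, Calb1, in males and 0 in females and in both sexes together. The share of all tested genes that DESeq2 called in males is not given here, so this call has no background beside it. The study's own test, with the earlier DESeq, also listed Calb1 as higher in heterozygous males, and did not list it in females.

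Calb1 came closest. It measured 15.8, 16.5 and 18.4 CPM in the Wiz+/+ males and 25, 21.6 and 21.7 CPM in the WizMommeD30/+ males, and these groups did not overlap. In males this held for 2 of 9 tested genes and for 12.3% of all tested genes. The log2 fold was 0.43 (1.35-fold, SE 0.0772, 95% CI 0.26 to 0.597, adjusted p = 0.0588 in edgeR and 0.00164 in DESeq2). In females it measured 21.7 and 14.3 CPM in Wiz+/+ and 20.3 and 22.7 CPM in WizMommeD30/+, and the groups overlapped (log2 fold 0.25, SE 0.179, adjusted p = 0.867). The 2 female controls differed enough to decide that value. It was 0.59 without Wiz+/+ replicate 1 and -0.014 without Wiz+/+ replicate 2, the brain low in forebrain markers. Each of these fits had only 1 control left. Over all 10 brains, with sex in the fit, the log2 fold was 0.35 (SE 0.0983, adjusted p = 0.178 in edgeR). Here too Calb1 passed the adjusted p in DESeq2 (log2 fold 0.36, adjusted p = 0.045), short of the 1.3-fold limit, and in edgeR without a count filter (adjusted p = 0.0311). Without female Wiz+/+ replicate 1 the edgeR log2 fold was 0.48 (adjusted p = 0.00601).

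Calbindin is also made by embryonic neurons outside the cerebellum, and the whole brain holds them. In the male comparison all 3 hypothalamus markers (median log2 fold 0.263; summed 78.0 to 97.7 CPM in Wiz+/+ and 89.5 to 124 CPM in WizMommeD30/+) and all 6 choroid plexus markers (median 0.206; 268 to 331 and 296 to 371 CPM) lay above 0, and none of them passed the adjusted p. All 4 tested markers of the cerebellar primordium, where Purkinje cells are born, lay above 0 too (median 0.099; 141 to 161 and 145 to 170 CPM). Other lists were mixed. Of the 9 tested genes of the 10, 4 lay above 0 and 5 below (median -0.0019). Of 19 tested further Purkinje genes, 9 lay above and 10 below (median -0.00823). Thalamus (median 0.1) and midbrain markers (0.0449) had medians above 0, and forebrain (-0.0647) and hindbrain markers (-0.0358) below. The part of these markers in the Calb1 value was not tested.

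Rora had a log2 fold below 0 in the embryo. In females it measured 33.4 and 32.3 CPM in Wiz+/+ and 24.9 and 26.1 CPM in WizMommeD30/+. The groups did not overlap, which in females was so for 7 of the 10 genes and for 36.5% of all tested genes, since 2 samples against 2 often separate. The log2 fold was -0.37 (SE 0.071, adjusted p = 0.372), and the adjusted p was 0.0306 when all 16 samples shared 1 fit. In males it measured 32.7, 31.8 and 29.7 CPM in Wiz+/+ and 28.5, 29.3 and 34.3 CPM in WizMommeD30/+, with a log2 fold of -0.040 (SE 0.0704).

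In females 2 of the 10 genes lay above 0 and 8 below (median log2 fold -0.146, beside 0.00015 for all tested genes), and 17 of 19 tested further Purkinje genes did as well (median log2 fold -0.169). Of the regional markers, the 5 forebrain markers all lay above 0 (median 0.405), and all 5 midbrain (median -0.245), all 4 hindbrain (median -0.153) and all 5 cerebellar primordium markers (median -0.169) lay below 0. None passed the adjusted p, and female Wiz+/+ replicate 2 stood apart in its forebrain and midbrain markers. The forebrain markers summed to 425 and 258 CPM in Wiz+/+ and 403 and 442 CPM in WizMommeD30/+, so the groups overlapped. The further Purkinje genes summed to 841 and 961 CPM in Wiz+/+ and 810 and 839 CPM in WizMommeD30/+, highest in Wiz+/+ replicate 2. The 10 genes summed to 281 and 265 CPM in Wiz+/+ and 243 and 264 CPM in WizMommeD30/+, highest in Wiz+/+ replicate 1. Without Wiz+/+ replicate 2, 3 of 5 forebrain markers lay above 0 (median 0.213). Below 0 were 3 of 5 midbrain (median -0.0998), 2 of 4 hindbrain (median -0.00569) and 4 of 5 cerebellar primordium markers (median -0.101). The further Purkinje genes then had 13 of 19 below 0 (median -0.0739), and the 10 genes had 7 below and 3 above (median -0.126). The log2 fold of Rora was -0.39 without that brain, and that of Slc1a6 -0.22, with 1 control left. The part of the regional makeup of the dissected brains in the Purkinje gene values was not tested.

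Counts of 3 genes were too sparse or too variable at E13.5 for a firm statement. Pcp2 had 14 and 11 counts in the Wiz+/+ females and 2 and 7 counts in the WizMommeD30/+ females, and 1 to 9 counts in the males, where it fell below the count filter. Pvalb had 81 and 69 counts in Wiz+/+ females and 49 and 25 in WizMommeD30/+ females (log2 fold -1.03, SE 0.311, adjusted p = 0.773), and a log2 fold of -0.36 (SE 0.259) in males. Car8 had 17 to 73 counts per brain and log2 folds of 0.085 (SE 0.225) in males and -0.11 (SE 0.218) in females. The 95% interval for Car8 in males ran from 0.755- to 1.49-fold, so a change within those limits was not resolved. The 3 WizMommeD30/+ males differed among themselves, at 0.992, 1.32 and 1.78 CPM of Car8.

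The remaining genes missed the adjusted p as well. Ppp1r17 measured 5.19, 5.07 and 8.29 CPM in Wiz+/+ males and 9.85, 7.74 and 7.37 CPM in WizMommeD30/+ males (log2 fold 0.41, SE 0.17, adjusted p = 0.552, or 0.0447 without a count filter), and its log2 fold was -0.0092 (SE 0.228) in females. Slc1a6 measured 5.22 and 6.545 CPM in Wiz+/+ females and 4.47 and 4.496 CPM in WizMommeD30/+ females (log2 fold -0.39, SE 0.153, adjusted p = 0.773), and had a log2 fold of -0.051 in males. Itpr1 had log2 folds of 0.11 in both sexes (SE 0.0443 in males, 0.0771 in females), Homer3 of -0.0019 and -0.035, and Foxp2 of -0.013 and -0.19.

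Whether the genotype difference itself differed between tissues was tested as a genotype by tissue term over the 6 cerebellums and the 6 male E13.5 brains. None of the 10 genes passed the study's threshold, which 0.173% of 17337 tested genes passed, and 3 of 10 had an unadjusted p under 0.05, beside 9.72% of all tested genes. With the adjusted p alone, Calb1 was the 1 gene that passed, against 0.26% of all tested genes. Its term, the genotype effect in cerebellum less that in E13.5 brain, was -0.37 on the log2 scale (SE 0.0752, adjusted p = 0.0475, edgeR quasi-likelihood test). For Rora the term was 0.20 (SE 0.0808, adjusted p = 0.406) and for Ppp1r17 -0.33 (SE 0.151, adjusted p = 0.489). The Ppp1r17 term rested on single libraries: it ran from -0.607 to -0.145 with 1 sample left out and passed the study's threshold without male Wiz+/+ replicate 3 (-0.607, adjusted p = 0.032), and its adjusted p was 0.00567 without a count filter.

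A genotype by sex term over the 10 E13.5 brains passed for 0 of the 10 genes and for 0 of all 17620 tested genes (0.0%) with edgeR, where 701 genes (3.98%) had an unadjusted p under 0.05 and DESeq2 called 1. Rora was the 1 of the 10 genes with an unadjusted p under 0.05 (female less male effect -0.33, SE 0.109, adjusted p = 0.985).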

How the data were processed

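The authors extracted RNA with Trizol, made polyA libraries with the TruSeq RNA kit, which does not mark strand, and sequenced single-end reads. They aligned the reads to mm10 with TopHat 2.0.11 and counted them per Ensembl gene with htseq-count 0.6.1; the annotation release and counting mode are not given in the sources used here. The deposited values are raw counts per gene of each sample, with 41388 identifiers, of which 40254 matched a GENCODE M21 symbol.

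Groups came from the labels. Each comparison was fitted on the counts of all genes with edgeR 4.0.16 (R 4.3.3; TMM, filterByExpr with a minimum count of 10, quasi-likelihood F test, Benjamini-Hochberg over all tested genes) on its own samples, and called at the study's threshold (adjusted p of at most 0.05 and fold under 0.7 or over 1.3). CPM used total counts; RPKM divided CPM by merged exon length. Confidence intervals are 95% from the fit. DESeq2 1.42.0 was an alternative, beside other scalings, count filters, the replicate block and leaving out each sample. On simulated counts with 200 genes changed 2-fold, the cerebellum fit recovered 90.5% among 15979 genes (3.21% of its calls were false). The male brain fit recovered 87.0% among 16848 (5.95% false) and the female brain fit 79.5% among 17152 (5.92% false). Among 17620 genes, the fit of both sexes recovered 88.0% (2.76% false) and the genotype by sex term 65.0% (7.8% false). The tissue fit recovered 87.5% among 16840 (2.23% false) and the genotype by tissue term 82.5% among 17337 (2.37% false). Outside the 200 changed genes the simulated tissues had equal levels, whereas 69.3% of tested genes passed between tissues in the data. The rates of the tissue fit and the tissue term therefore do not cover genes with very few counts in 1 tissue. None of the simulated rates covers smaller changes, such as those of the 10 genes between genotypes in cerebellum. Named genes were the 10 members, Wiz, list genes past the adjusted p (at most 4 a list and comparison) and the 5 most alike; Ebf2, Lhx5 and Homer2 in the tissue comparison were named as the only members of their lists that passed as lower. The members and lists were chosen with earlier results of these data known. The sources do not say whether replicates are littermates, so p-values measure the spread between these samples.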

Additional observations from a re-analysis of the deposited data

Results flagged for a closer look

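The genotype effect on Calb1 differed between tissues by the test of the difference itself. The term (cerebellum less male E13.5 brain) was -0.369 on the log2 scale, with effects of 0.063 in cerebellum and 0.43 in the male brains; Calb1 was higher in 3 of 3 heterozygous samples than in every control in both tissues. The edgeR adjusted p of the term was 0.0475. With 1 sample left out it ranged from 0.0182 to 0.187 and stayed at or under 0.05 in 2 of 12 fits, those without male Wiz+/+ replicate 3 and without male WizMommeD30/+ replicate 3.

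Itpr1 in female Wiz+/+ replicate 2 (30.2 CPM) lay far below the other 4 Wiz+/+ E13.5 brains, which measured 33.9 to 35.4 CPM. It was 1 of 20 sets of 5 brains looked at, and chance alone gives about 1 in 20. The same brain had the lowest Calb1 value of the 10 (14.3 CPM).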

How the results depend on the processing

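The 10 calls between cerebellum and E13.5 brain kept their number and direction under every alternative run, including heterozygous males in place of Wiz+/+ males and Wiz+/+ brains of both sexes. In cerebellum 0 of 10 genes were called under every alternative but the one with no fold limit, which gave 1 (Rora). In male E13.5 brain the count was 1 with DESeq2 and 2 without a count filter (Calb1 and Ppp1r17), and 0 to 1 when 1 sample was left out (1, Calb1, without Wiz+/+ or without WizMommeD30/+ replicate 3). It was also 0 to 1 in both sexes together (1, Calb1, without female Wiz+/+ replicate 1). For the genotype by tissue term it was 0 to 1 (1, Ppp1r17, without male Wiz+/+ replicate 3), and 1 with no fold limit (Calb1). In females it was 0 under every alternative that kept 2 samples a group. The cause was not tested.

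Over all tested genes, the count called in cerebellum was 133, against 84 with DESeq2, 211 without a filter, 66 in a fit of all 16 samples and 70 to 153 without 1 sample. In males it was 31, against 175 without a filter and 20 to 117 without 1 sample. In females it was 19, against 32 with DESeq2, 54 in the fit of all 16 samples and 0 to 261 without 1 sample. In both sexes it was 61, against 101 without a filter. For the tissue term it was 30, against 56 with DESeq2, 174 without a filter and 12 to 73 without 1 sample. For the sex term it was 0, against 1 with DESeq2, 1 without a filter and 0 to 13 without 1 sample. The same genes were not counted across these fits.

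The replicate numbers did not pair the samples. The correlation of deviations between same-numbered samples was -0.0847 to -0.022 in cerebellum, -0.16 to -0.0642 in males and -0.0646 in females. With the replicate number as a block, 0 genes were called in cerebellum, in males, in females, in both sexes and for the tissue term, as without it. Over all genes the block moved the count to 3 in females and to 10 for the tissue term. The Calb1 tissue term became -0.38 with the block (adjusted p = 0.178), Calb1 in males 0.43 (adjusted p = 0.181) and Rora in cerebellum 0.16 (adjusted p = 0.00599).

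The values of some genes not called above changed sign, and none had a call on the other side of 0. In cerebellum Pvalb was -0.00013 on the log2 scale with total counts alone, -0.0018 without a filter and -0.0017 in the fit of all 16 samples, and in males Homer3 was 0.0021 with total counts alone and 0.00105 without a filter. With 1 sample left out, the log2 fold in cerebellum ran from -0.018 to 0.019 for Pvalb, -0.078 to 0.019 for Foxp2 and -0.041 to 0.015 for Homer3. In males it ran from -0.14 to 0.276 for Car8, -0.125 to 0.014 for Rora, -0.135 to 0.077 for Slc1a6, -0.032 to 0.017 for Foxp2 and -0.0698 to 0.046 for Homer3. In females, where 1 group then had 1 sample, it ran from -0.014 to 0.589 for Calb1, -0.254 to 0.055 for Car8 and -0.421 to 0.312 for Ppp1r17. In both sexes it ran from -0.118 to 0.101 for Car8 and -0.056 to 0.0098 for Homer3. The tissue term ran from -0.571 to 0.328 for Pcp2, -0.234 to 0.182 for Car8, -0.073 to 0.029 for Foxp2 and -0.058 to 0.039 for Homer3. The sex term ran from -0.438 to 0.17 for Calb1, -0.074 to 0.097 for Itpr1, -0.383 to 0.026 for Car8 and -0.076 to 0.041 for Homer3.

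In cerebellum, with 3 samples a group, standard errors of the 10 genes were 0.0268 to 0.0738. There a log2 fold of 0.16 (Rora) passed the adjusted p in the main edgeR fit, and one of 0.12 (Slc1a6) did not. Small changes were harder to resolve at E13.5, where groups had 3 or 2 samples and counts of Pcp2 reached 14 at most.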
